A study of Mus musculus with 2 samples.

Results

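Pdx1, Nkx6-1, Nkx2-2, Neurod1, Mafa, Isl1, Pax6 and Insm1 are transcription factors of the endocrine cells of the pancreatic islet. They were measured in whole pancreas of 1 WT mouse sample and 1 Nrdc-cKO sample, on 1 array each. The 8 genes were taken as a named group, and their values came from every non-control probe whose RefSeq accession belongs to 1 of them. This gave 13 probes for the 8 genes, of 56604 probes and 22911 named genes in all. The WT pancreas and the Nrdc-cKO pancreas both came from male C57BL/6 mice aged 5 weeks. Nrdc-cKO stands for Ptf1a-Cre; Nrdcflox/flox, in which Cre recombinase removes loxP-flanked alleles of Nrdc, the gene of the metalloendopeptidase nardilysin, and the study asked what nardilysin does in the exocrine pancreas. Whether the WT animal carried Cre or floxed alleles, and whether tissue was pooled, is not stated in the sources used here. Ptf1a is active in early pancreatic progenitors and stays on in acinar cells, so cells of the islet can also descend from cells in which this Cre was active.

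Islets are small clusters of hormone-secreting cells scattered through a gland made mostly of acinar cells, and their identity is held by a network of transcription factors that bind each other's regulatory regions and those of hormone genes. Pdx1, Mafa and Nkx6-1 are best known for the insulin-producing beta cell, and Pdx1 is also required for the whole gland to form and remains at a low level in acinar cells. Nkx2-2, Neurod1, Isl1, Pax6 and Insm1 act more broadly in endocrine cells, and most of them are also used by neurons. By protein family, Pdx1, Nkx6-1, Nkx2-2, Isl1 and Pax6 carry a homeodomain, which recognises short sites with a TAAT core. Neurod1 is a basic helix-loop-helix factor of E-boxes (CANNTG), Mafa is a basic leucine zipper factor, and Insm1 is a zinc finger repressor.

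The bases just before the RefSeq start of Ins1, an insulin gene and a well known target of Pdx1, Neurod1 and Mafa, are shown with those of Pdx1, of both starts of Pax6 and of Nkx6-1, because these genes stood at different places in the comparison below. Sequences are from RefSeq, build GRCm38.p6, 250 bases for Ins1 and 150 for the others, 5′ to 3′ in the direction of the gene, and capitals mark every CANNTG and every TAAT on either strand. The windows are chr19:52264047-52264296, plus strand, chr5:147269947-147270096, plus strand, chr2:105668746-105668895, plus strand and chr2:105682313-105682462, plus strand, and chr5:101664712-101664861, minus strand.
Ins1: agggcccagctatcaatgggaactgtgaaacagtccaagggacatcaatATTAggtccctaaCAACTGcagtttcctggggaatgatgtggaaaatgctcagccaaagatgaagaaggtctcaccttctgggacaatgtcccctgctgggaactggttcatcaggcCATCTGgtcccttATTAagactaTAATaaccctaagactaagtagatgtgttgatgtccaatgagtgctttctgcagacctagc
Pdx1: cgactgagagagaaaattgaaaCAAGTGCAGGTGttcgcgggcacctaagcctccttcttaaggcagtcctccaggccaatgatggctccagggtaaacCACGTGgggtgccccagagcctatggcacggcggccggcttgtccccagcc
Pax6, start 1: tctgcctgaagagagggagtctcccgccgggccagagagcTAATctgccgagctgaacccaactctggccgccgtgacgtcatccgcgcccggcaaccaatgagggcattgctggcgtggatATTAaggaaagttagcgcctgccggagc
Pax6, start 2: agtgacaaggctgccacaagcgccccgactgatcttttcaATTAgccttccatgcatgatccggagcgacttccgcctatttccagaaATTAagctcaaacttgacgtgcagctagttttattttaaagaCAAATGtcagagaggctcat
Nkx6-1: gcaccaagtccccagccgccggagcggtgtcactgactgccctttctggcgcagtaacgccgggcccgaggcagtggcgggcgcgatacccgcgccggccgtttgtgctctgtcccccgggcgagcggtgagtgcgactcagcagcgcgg

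The Ins1 window held 2 CANNTG and 3 TAAT motifs in 250 bases. In the same length before the start, Pdx1 had 3 CANNTG, 2 of them directly adjoining, and 0 TAAT. Pax6 had 0 CANNTG and 2 TAAT at start 1 and 1 CANNTG and 2 TAAT at start 2. The Nkx6-1 window held neither. Isl1 had 1 CANNTG and 2 TAAT, Nkx2-2 had 3 and 1, and Neurod1 had 1 and 0. TGCTGA, a half-site of Maf factors searched on both strands, occurred in 2 of the 7 windows, those of Neurod1 and Nkx6-1. Over all 32851 such windows, 66.2% held CANNTG, 54.9% held TAAT and 16.1% held TGCTGA, so these short motifs are common. A match of letters is not a binding site. Mafa and Insm1 had no entry in the promoter table.

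Relative to each array's own scale, the factors did not share 1 difference. Nkx6-1 and Isl1 stood more than 2-fold higher in Nrdc-cKO than in WT. Insm1 and Neurod1 were detected in Nrdc-cKO alone. Mafa, Pdx1 and Pax6 lay within 2-fold of the WT array, with Pax6 differing between its probes. Nkx2-2 had the lowest difference as the mean of 2 probes that disagreed, the higher of them level with Pdx1 and Pax6. With 1 array per group there was no test and no error across animals. The ± values below are the scanner software's own error of a spot, which leaves out the animal, the dissection and the labelling. In whole pancreas, more cells of a type and more RNA per cell cannot be told apart.

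The arrays differed in overall brightness. The share of non-control spots well above background was 46.3% for WT and 60.3% for Nrdc-cKO. The 75th percentile of the processed signal was 70.8 in WT and 227 in Nrdc-cKO, a ratio of 3.21, and each array's values were set relative to its own percentile. A factor therefore counts as higher below when its signal ratio exceeded 3.21. Nrdc itself, measured by 1 probe, was 9.25-fold lower on the Nrdc-cKO array, and whether that probe lies in the deleted part is not given. Acinar markers were bright on both arrays, and all 8 were past 2-fold lower in Nrdc-cKO.

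**Figure D1:**
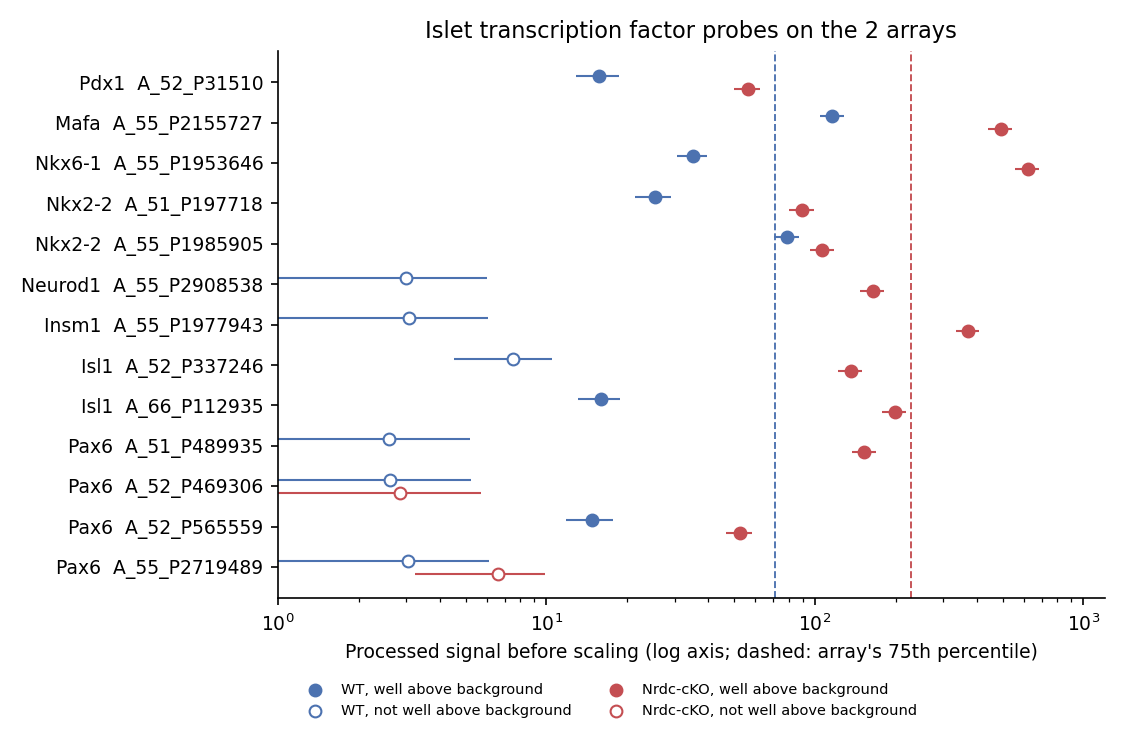
Processed signal of the 13 probes on the WT array (blue) and the Nrdc-cKO array (red), on a log axis before scaling, with the scanner software's error as bars, which stop at the axis edge where they reach below it. Open circles were not well above background, and dashed lines mark each array's 75th percentile, 70.8 and 227. All 7 probes measured on both arrays were brighter on the Nrdc-cKO array before scaling, by 1.35 to 17.7 times.

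Nkx6-1, which holds beta cells in their insulin-producing state, had the largest difference of the factors measured on both arrays. Its probe gave a signal of 35.1 ± 4.49 in WT and 620 ± 62.1 in Nrdc-cKO, 17.7 times brighter before scaling. After scaling this was a log2 difference of 2.46 ± 0.23, or 5.49-fold higher. Of all genes measured on both arrays, 1.94% had a difference as high or higher. Its level lay below the 75th percentile on the WT array and above it on the Nrdc-cKO array.

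Mafa, the activator of insulin genes that marks mature beta cells, gave a signal of 116 ± 11.9 on the WT array, above that array's 75th percentile. The Nrdc-cKO array gave 491 ± 49.2. The scaled log2 difference was 0.40 ± 0.21, or 1.32-fold, and 25.4% of genes measured on both arrays lay as high or higher. Its spot stood at 5.48 times its local background in WT and 18.7 times in Nrdc-cKO.

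Pdx1 is the homeodomain factor that the pancreas needs to form and that later drives insulin and glucose transport genes in beta cells. Its single probe was dim, at 15.8 ± 2.91 in WT and 56.2 ± 6.22 in Nrdc-cKO. The signals had a ratio of 3.57, close to the ratio of the arrays' percentiles. The scaled log2 difference of 0.15 ± 0.31 was smaller than its own technical error, and 34.5% of genes lay as high or higher.

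Isl1, a LIM-homeodomain factor of all islet hormone cells, had 2 probes, and both were brighter on the Nrdc-cKO array. The probe A_66_P112935 gave 16.0 ± 2.82 in WT and 198 ± 20.0 in Nrdc-cKO, a scaled log2 difference of 1.95 ± 0.29 (3.86-fold). Only 3.98% of genes measured on both arrays lay as high or higher. The second probe, A_52_P337246, was not well above background in WT (7.51 ± 2.96) and reached 136 ± 14.0 in Nrdc-cKO, at least 3.73-fold higher. This bound sets the Nrdc-cKO level against the lowest signal that was well above background on the WT array, 11.4, after scaling.

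Insm1, a zinc finger repressor needed for endocrine cells to differentiate, was not well above background on the WT array, at 3.07 ± 2.98. On the Nrdc-cKO array its probe gave 371 ± 37.3, at least 10.2-fold higher on the scanner's processed signal. Neurod1, which activates insulin genes through E-boxes, stood at 3.01 ± 3.01 on the WT array, no larger than its error, and at 164 ± 16.7 on the Nrdc-cKO array. Its bound was at least 4.49-fold on the same scale. Both genes rest on 1 probe each. Of the 16048 genes detected on either array, 17.7% were detected in Nrdc-cKO alone, and 22.2% of those had a bound of at least 2-fold.

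Pax6, a paired-domain and homeodomain factor that glucagon cells in particular depend on, gave different answers from its 4 probes. A_52_P565559 was the only probe well above background on both arrays, with 14.8 ± 2.95 in WT and 52.4 ± 5.93 in Nrdc-cKO. Its log2 difference of 0.14 ± 0.33 was smaller than its error. A_51_P489935 stood at 2.59 ± 2.60 in WT and at 153 ± 15.5 in Nrdc-cKO, at least 4.17-fold higher. The remaining probes, A_52_P469306 and A_55_P2719489, were not well above background on either array, with 2.62 and 3.04 on the WT array and 2.86 and 6.58 on the Nrdc-cKO array. RefSeq lists several Pax6 transcripts and the promoter table holds 2 starts, both printed above, but the files used here do not give the part of the transcript each probe reads. The value of 0.14 for Pax6 thus describes 1 of 4 probes.

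Nkx2-2, a homeodomain factor that keeps beta cells from taking other endocrine fates, was read by 2 probes that disagreed. A_51_P197718 gave 25.3 ± 3.86 in WT and 89.6 ± 9.51 in Nrdc-cKO, a log2 difference of 0.14 ± 0.27. A_55_P1985905, designed on another Nkx2-2 transcript, gave 79.0 ± 8.27 in WT and 107 ± 11.0 in Nrdc-cKO, a difference of -1.25 ± 0.21, or 2.38-fold lower. The probes differed from each other by 1.39 ± 0.34 on the log2 scale, 4.07 times the technical error. A_55_P1985905 was the only one of the 7 probes measured on both arrays that was past 2-fold lower, and it too was brighter on the Nrdc-cKO array before scaling, by 1.35 times. The value used for the gene, -0.55, is the mean of both probes.

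Of the 6 factors measured on both arrays, 2 stood past 2-fold higher and 0 past 2-fold lower. Among all 13001 genes measured so, 12.8% stood past 2-fold higher and 17.3% past 2-fold lower. That split moved with the scaling, to 22.2% and 8.26% in the authors' deposited value table, to 79.8% and 0.885% with spike-in scaling, to 15.2% and 13.1% with loess, to 15.1% and 13.4% when detected probes set the percentile, and to 9.63% and 8.98% or 9.04% and 6.55% with the 2 normexp corrections. The median log2 difference of the 6 factors was 0.27, against -0.18 for all genes measured on both arrays. It was 1.18 over the 8 factors with Insm1 and Neurod1 at their bounds. No median with bounds was computed for all genes, so 1.18 has no counterpart over all genes. Among the lists described below, the median with bounds was 0.45 for other endocrine transcription factors and -0.09 for partners and cofactors. It was 0.68 for duct and progenitor factors and 2.14 for beta cell targets. The order of the differences was Nkx6-1, Isl1, Mafa, Pdx1, Pax6 and Nkx2-2. The gap between Isl1 and Mafa, 1.55 ± 0.36, was 4.32 times its technical error. It narrowed under normexp, with Isl1 at 0.69 and Mafa at 0.54 with the 75th percentile. With normexp and quantile scaling they stood at 0.92 and 0.39. Neighbours on either side of that gap were closer, with Nkx6-1 above Isl1 by 0.51 ± 0.38, Mafa above Pdx1 by 0.25 ± 0.37 and Pax6 above Nkx2-2 by 0.70 ± 0.37. Pdx1 and Pax6 differed by 0.01 ± 0.45.

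**Figure D2:**
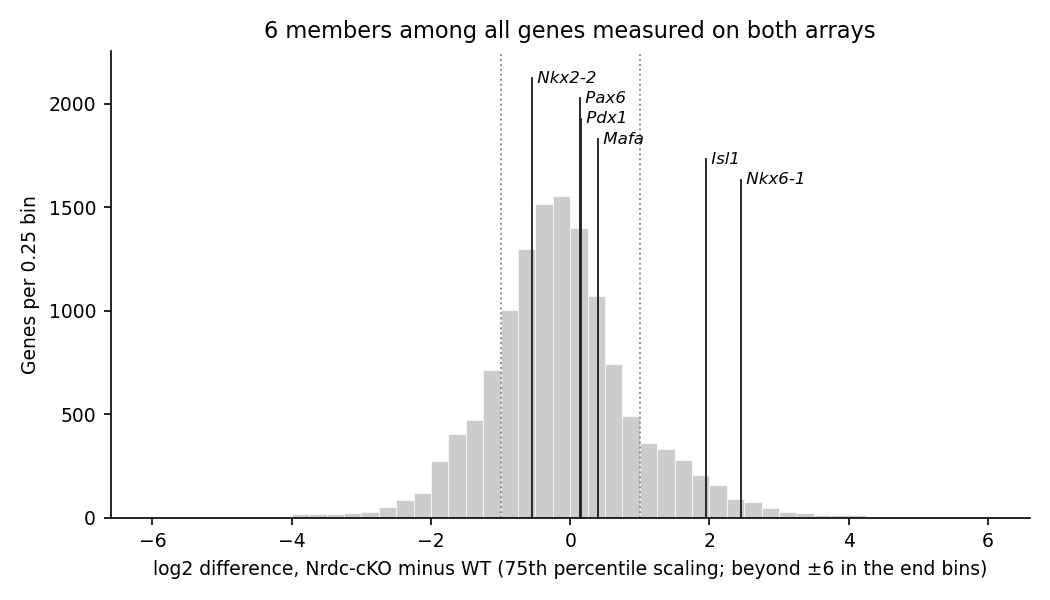
Number of genes (y axis) by log2 difference, Nrdc-cKO minus WT, in bins of 0.25 for the 13001 genes measured on both arrays (grey), with the 6 factors as black lines. Dotted lines mark 2-fold. Nkx6-1 (2.46) and Isl1 (1.95) lie in the upper tail, and Mafa, Pdx1, Pax6 and Nkx2-2 lie within 2-fold.

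The size of the differences moved with the scaling and the background correction. On the WT array 11 of the 13 probes were below the 75th percentile, and on the Nrdc-cKO array 10 were, near the 75% of all probes that lie there by construction. Over the 9 scalings and background corrections compared, Nkx6-1 ranged from 1.60 to 4.35 and Isl1 from 0.69 to 3.85. Isl1 did not reach 2-fold under normexp, a model-based background correction with an added offset that shrinks differences of dim probes. There it was 0.69 with the 75th percentile and 0.92 with quantile scaling. Pdx1 turned to -0.49 and -0.03 under the same corrections, and Pax6 to -0.54 and 0. Mafa stayed between 0.39 and 0.89 except with spike-in scaling, which shifts every gene by 1.90 and put it at 2.29. With that scaling all 6 factors lay past 2-fold higher, Nkx2-2 lowest at 1.34. The probes detected in Nrdc-cKO alone also stood closer to WT under normexp, below the bounds given above. Insm1 was 1.48 with the 75th percentile and 1.90 with quantile scaling, so both stayed past 2-fold. Neurod1 was 0.59 and 1.19, and the Pax6 probe A_51_P489935 was 0.78 and 1.39, so each was within 2-fold under the first. The Isl1 probe A_52_P337246 was 0.38 and 0.92, within 2-fold under both. In all 9, among the factors measured on both arrays, Nkx6-1 was highest, followed by Isl1 and Mafa, with Pdx1 and Pax6 next. Nkx2-2, as the mean of both its probes, was lowest. This order could differ only under quantile scaling, loess and the normexp corrections, since the other scalings shift every gene alike. The Nkx2-2 probe A_51_P197718 alone was -0.42 under normexp with the 75th percentile, above Pdx1 and Pax6. With normexp and quantile scaling it was -0.06, below both.

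**Figure D3:**
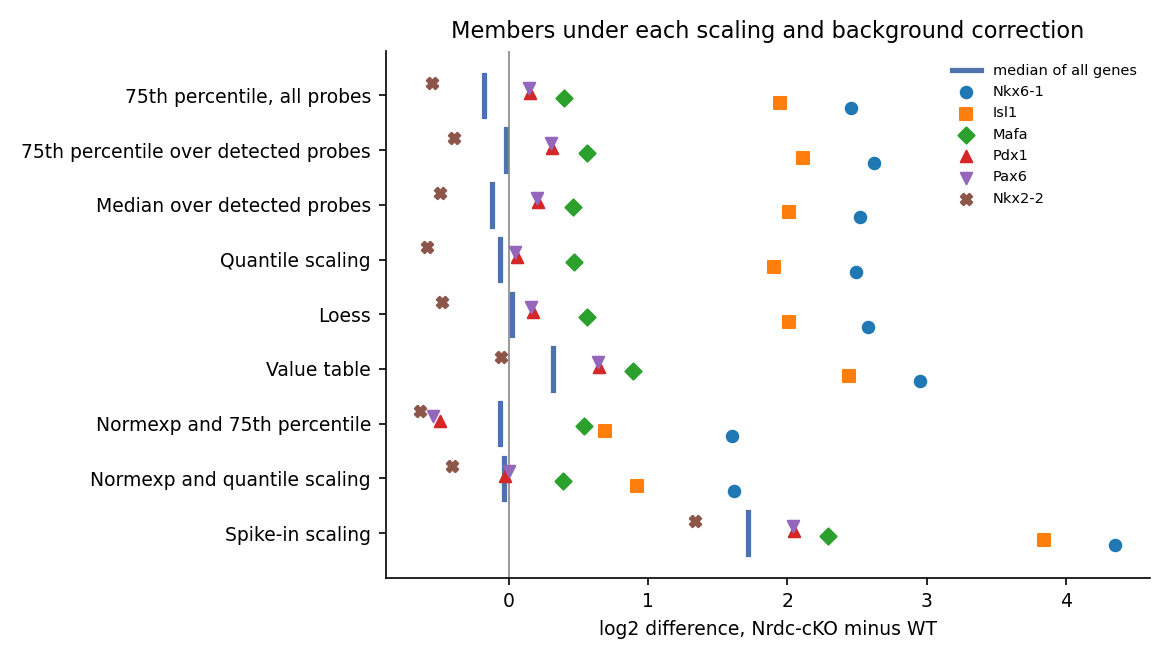
Log2 difference, Nrdc-cKO minus WT, of the 6 factors (symbols) under each of 9 scalings or background corrections (rows), with the median of all genes as a blue bar. The symbols keep their order from Nkx6-1 at the right to Nkx2-2 at the left, apart from Pdx1 and Pax6, which lie close together. Scalings that shift every gene alike cannot change this order. Spike-in scaling moves the median of all genes to 1.71.

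Further transcription factors of endocrine cells also lay on both sides. In a list of 26 such genes, 13 were measured on both arrays, 5 of them past 2-fold higher and 4 past 2-fold lower, with a median of 0.37. Prox1, a progenitor and endocrine homeodomain factor also of lymphatic vessels, stood at 3.44. The somatostatin cell factor Hhex stood at 2.47, Etv1 at 1.91 and Glis3, a regulator of insulin genes, at 1.57. The lower genes included Lmx1b (-1.91), Hnf4a (-1.54) and Fev (-1.41). Hnf4a is also transcribed in acinar cells. Another 7 were detected in Nrdc-cKO alone, among them St18 (at least 4.09-fold), Onecut2 (at least 3.07-fold) and Myt1 (at least 2.37-fold). Neurog3, which starts the endocrine program in the embryo and switches on Neurod1 and Insm1, was not well above background on either array, nor was Pax4.

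The proteins these factors work with lay mostly near the arrays' common level. Of 21 partners and cofactors measured on both arrays, 20 were within 2-fold, with a median of -0.09. Among all 13001 genes measured so, 9083 were within 2-fold. The 20 partners within 2-fold include Ldb1, the partner of Isl1 (-0.47, the mean of 2 probes at -1.08 and 0.15). They also include Tcf3 and Tcf12, the partners of Neurod1 (0.66 and 0.21), and Kdm1a and Rcor1, which Insm1 recruits (-0.27 and -0.09). These 5 genes, Ldb1 among them, were chosen by role after their values were seen. The exception was Tle4, a Groucho corepressor, at 2.97, followed by Hdac1 at 0.91 and Tle3 at 0.69, and Kmt2d was lowest at -0.86. Among 17 paralogs of the 8 factors, 10 (58.8%) were not well above background on either array, including Isl2, Insm2, Nkx6-2 and all 3 listed Neurod relatives. The share among all genes was 29.96%. Of the 6 measured on both arrays, 2 were past 2-fold higher, among them Maf (2.17), and Nkx2-5 (-1.26) and Nkx2-6 (-1.69) were past 2-fold lower. Maf is also made by macrophages. The listed macrophage markers had a summed signal of 35 times the 75th percentile in WT and 101 times in Nrdc-cKO, with 5 of 6 past 2-fold higher, and their part in these values was not tested.

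Known targets of the factors in beta cells mostly stood higher in Nrdc-cKO. Of 10 measured on both arrays, 7 were past 2-fold higher and 2 past 2-fold lower. Their median was 2.75 (2.14 over all 16 with bounds). The glucose-6-phosphatase gene G6pc2 was 16.0-fold higher, and on the log2 scale the sulfonylurea receptor Abcc8 stood at 3.98 and both the zinc transporter Slc30a8 and the amyloid peptide gene Iapp at 3.93. Ins1, whose promoter is printed above, stood at 2.72. The lowest was Ero1b, an oxidoreductase of the endoplasmic reticulum, at -2.15. Nnat, detected in Nrdc-cKO alone, was at least 18.6-fold higher. Ucn3, a marker of mature beta cells for which Mafa is a known activator, was at least 10.1-fold higher on the same terms. Ucn3 and Ins1 were chosen after their values were seen.

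Genes of other islet cells and of the secretory granule were measured in the same way. Of 8 non-beta hormones and genes, 7 were past 2-fold higher, with a median of 3.11, led by Ppy (4.59), Gcg (4.04) and Pyy (3.32). The exception was the amino acid transporter Slc38a5, at -5.77. Of 14 general endocrine granule genes, 7 were past 2-fold higher and 2 past 2-fold lower. Their median was 1.71, led by Chgb (4.58), Chga (4.47) and Scg2 (4.13), with the lowest Rab3a at -1.86. Summed over its probes, the beta cell list had 396 times the 75th percentile in WT and 2542 times in Nrdc-cKO. Most of both beta cell sums came from Ins1 and Ins2, whose differences were 2.72 and 2.77. Their log2 levels relative to the percentile were 7.26 and 7.51 in WT and 9.98 and 10.3 in Nrdc-cKO. The beta cell sums therefore say little about the other genes of that list. The non-beta list had 347 and 384 times with Slc38a5 included, and the granule list 116 and 326 times. Slc38a5, at log2 levels of 8.28 in WT and 2.51 in Nrdc-cKO relative to the percentile, made up most of the WT sum of its list. It made up little of that list's Nrdc-cKO sum, so these 2 sums do not describe the hormones. The 13 probes of the 8 factors had 4.57 and 10.8 times. These lists came from the same 2 arrays as the factors, so their values are set side by side and no difference between lists was tested.

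**Figure D4:**
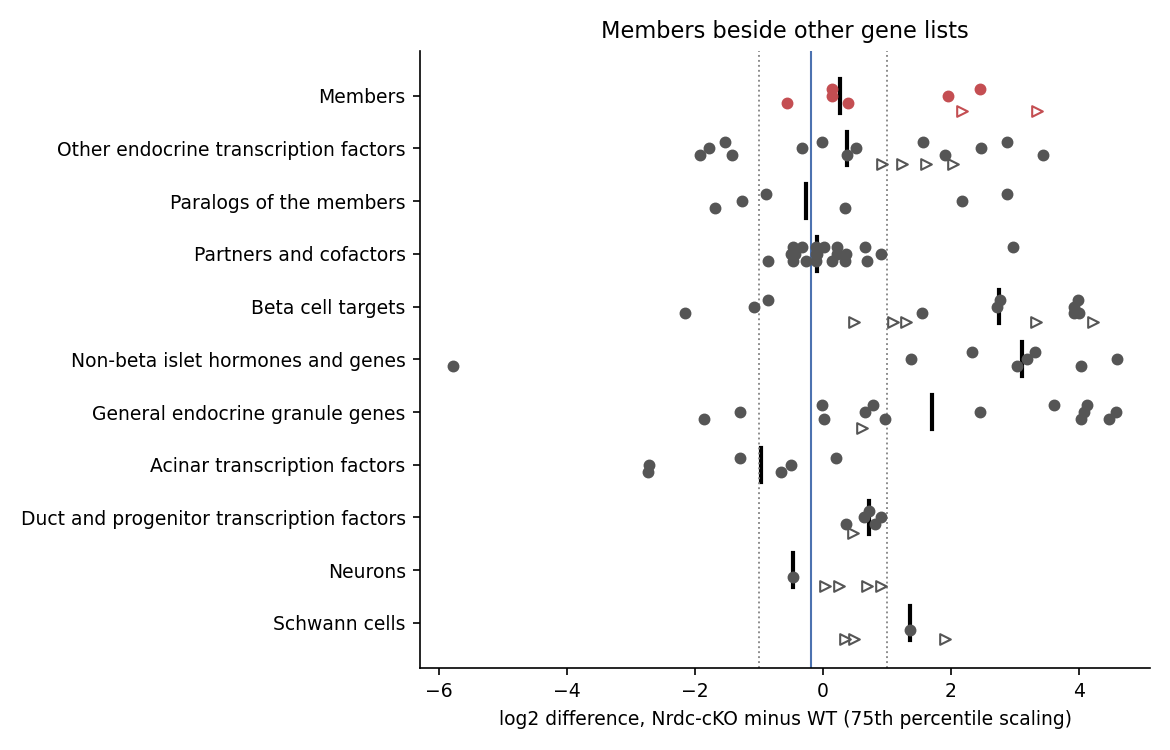
Log2 difference, Nrdc-cKO minus WT, of each gene measured on both arrays (points) by list, with the list median as a black bar, the median of all genes (-0.18) as a blue line and 2-fold as dotted lines. Open triangles are lower bounds above 0 of genes detected in Nrdc-cKO alone. The 8 factors (red) range from -0.55 to 2.46 with bounds of 2.17 and 3.34, while most beta cell targets and hormones lie above 2.

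Several of the factors are also used outside the islet, and markers of those cells were looked at beside them. Of 12 markers of neurons, 1 was measured on both arrays, Th at -0.46, and 8 were detected in Nrdc-cKO alone, none with a bound that reached 2-fold. Of all genes detected on either array, 17.7% were detected in Nrdc-cKO alone. The summed signal of the 12 markers was 4.70 times the 75th percentile in WT and 4.51 times in Nrdc-cKO. Most of both sums came from Th, at log2 levels of 1.86 and 1.40 relative to that percentile. The sums therefore say little about the other neuron markers. Dbh and Chrna3 were among the 3 markers not well above background on either array. Of 6 Schwann cell markers, S100b was at least 3.75-fold higher, and the summed signal of the list was 1.01 times in WT and 2.70 times in Nrdc-cKO. Markers of gut epithelium and its endocrine cells had 5 of 10 not well above background on either array, including Cdx1 and Cdx2, beside the same 29.96% of all genes. The secretin gene Sct, at 1.46, was the highest of them, and Gip was detected on the WT array only.

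Transcription factors of the neighbouring epithelia differed between the acinar and the duct list. Of 6 acinar factors, Ptf1a and Bhlha15 at -2.72 each and Rbpjl at -1.30 were past 2-fold lower. None of 5 duct and progenitor factors measured on both arrays was past 2-fold, with Hey1 highest at 0.91 and Sox9 lowest at 0.36 (2 probes, -0.47 and 1.18). All 5 lay above 0, and their median of 0.72 was higher than the 0.27 of the islet factors measured on both arrays. That order reversed with genes detected in Nrdc-cKO alone at their bounds. The medians were then 0.68 for the duct and progenitor list and 1.18 for the islet factors. Hes1 was detected in Nrdc-cKO alone, at least 1.39-fold higher. The acinar cell markers had a summed signal of 41402 times the 75th percentile in WT and 11088 times in Nrdc-cKO. Markers of stellate cells and fibroblasts had 222 and 847 times, with 7 of 7 measured on both arrays past 2-fold higher and a median of 2.13. Adipocyte markers had 2.72 and 609 times, with 5 of 6 detected in Nrdc-cKO alone, beside 17.7% of all genes detected on either array. The remaining marker, Lep, was measured on both arrays and went the other way, at -1.87. The part of tissue make-up in the values of the 8 factors was not tested.

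The genes of the 8 factors lie on several chromosomes, with Neurod1, Pax6, Insm1 and Nkx2-2 on chromosome 2 and Nkx6-1 and Pdx1 on chromosome 5. The nearest measured gene on each side gave 16 neighbours, 4 of them past 2-fold higher and 2 past 2-fold lower. The shares among all genes measured on both arrays were 12.8% and 17.3%. Beside Pdx1, the non-coding RNA Plut stood at 1.098 while Pdx1 itself stood at 0.15. On either side of Nkx6-1, the lipid synthesis gene Gpat3, with 10 genes between that had no such value, stood at 3.29 and Wdfy3 at -0.29. Of the antisense transcripts, Pax6os1 was detected in Nrdc-cKO alone, without a bound above 1-fold, and Nkx2-2os was not well above background on either array. With 2 arrays the pattern of a gene is a single difference. The listed genes nearest to the median of the 6 factors were the keratin Krt19 (0.25), Meis1 (0.22) and Tcf12 (0.21).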

How the data were processed

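Total RNA of 1 WT and 1 Nrdc-cKO pancreas sample was labelled with Cy3 and hybridised to 1-colour Agilent mouse arrays, per the labels' protocols. Groups were taken from the sample titles. The deposited scanner files held, per spot, a background-corrected processed intensity with an error estimate, the median pixel intensity and flags. The file headers name Feature Extraction 12.0.3.1, while the submitters' processing notes name 11.5.1.1. The authors' deposited value table was the same intensity times 1 constant per array (4.37 and 1.92), on a linear scale without centring. The origin of these constants is not stated in the sources used here.

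Spots with an outlier flag on either array (115) were removed, leaving 56604 probes, none with a saturated spot. The log2 processed signal was averaged over repeat spots, and each array's 75th percentile over non-control probes was subtracted. Detection of a probe required the well-above-background flag on a share of 0.5 or more of its spots. Gene values were the mean log2 difference, Nrdc-cKO minus WT, over probes detected on both arrays, and 2-fold was the threshold. A gene detected on 1 array only got a bound against the higher of the dim array's lowest detected signal and the probe's own.

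Probes were named by unversioned RefSeq accession through a table of assembly GRCm38.p6, and 32993 matched. Probe coordinates, which follow another build, were not used. The symbol Nrdc replaces the older symbol of that table. The factors and the 19 other gene lists were chosen with earlier results of these data known. All 8 factors are named. In the transcription factor lists genes past 2-fold are named, apart from some that are not reported here, and in the other lists mainly the highest 3, the lowest and the largest bound. The alternative background correction used limma 3.58.1 in R 4.3.3, normexp on the median pixel intensity with an offset of 50. The calculation was tested on simulated data. Repeat spots of 291 probes had a median SD of 0.032 for the log2 difference.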

Additional observations from a re-analysis of the deposited data

How the results depend on the processing

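No paired analysis was possible because WT and Nrdc-cKO had 1 array apiece, and no replicate could be left out. A median was taken to have moved when it shifted by more than 0.074, an upper value of the SD between repeat spots. The count of factors at least 2-fold higher, 2 in the report, was 6 with spike-in scaling, 1 with normexp and either scaling, 4 with no filter on dim probes or with bounds counted, 1 at 4-fold, and 0 with bright probes only, where Mafa alone was left. The count at least 2-fold lower, 0, was 1 when the brightest probe stood for a gene, which is Nkx2-2. The count among the other endocrine transcription factors, 5, was 9 with spike-in scaling, 10 with no filter, 8 with bounds counted, 3 at 4-fold and 0 with bright probes only. The median of the factors, 0.27, was 2.17 with spike-in scaling, 0.77 from the value table, 0.37 under loess and 0.44 when only detected probes set the 75th percentile. Normexp gave 0.025 with 75th percentile and 0.19 with quantile scaling. It was 1.39 with no filter, 0.40 with bright probes only and 1.18 with bounds. Pdx1 changed sign to -0.49 and -0.027 and Pax6 to -0.54 with normexp, and Nkx2-2 to 1.34 with spike-in scaling. Spike-in scaling adds 1.90 to every gene, and the other causes were not tested. Signal over background limits Pdx1, Pax6, Isl1, Neurod1 and Insm1 most, since their WT probes were near or below the lowest detected signal.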
